A study of Mus musculus with 2 samples.

Results

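Chromatin accessibility at 40 lysosomal genes was examined in nuclei of the mouse brain by single-cell ATAC-seq, an assay in which a transposase cuts open DNA and every fragment is tagged by nucleus. The genes were a list of lysosomal membrane proteins, proteases, lipid and sugar hydrolases, subunits of the proton pump and regulators, taken by name from 21829 protein-coding genes. Brains came from male C57BL/6J wild-type mice aged 8 to 12 weeks, 48 h after 1 h of middle cerebral artery occlusion and reperfusion (stroke) or after sham surgery. The stroke library was made from the ipsilateral hemispheres of 4 mice and the sham library from the whole brains of 4 mice, with olfactory bulbs and cerebellum removed. Each condition was thus 1 library of pooled animals, so that condition, library and dissected tissue cannot be told apart and no test between conditions is possible.

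Lysosomes are acidic organelles that break down material delivered by endocytosis, phagocytosis and autophagy. The vacuolar proton pump acidifies the lumen, soluble hydrolases digest proteins, lipids and sugars, and the glycoproteins LAMP1 and LAMP2 line the membrane, while transporters such as NPC1 carry products out. TFEB, a transcription factor, binds E-box sequences in promoters of lysosomal genes, and phagocytes of the brain such as microglia and macrophages are rich in lysosomes. Every cell needs lysosomes, so that these genes include both broadly used and cell-type-biased ones.

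The sham library held 6817 nuclei and the stroke library 5054 nuclei after a minimum of 20% of fragments in peaks, with medians of 10356 and 9898 fragments per nucleus. Nuclei were placed in 8 classes by marker genes, none of which is among the 40 genes, and each class is called by the cell type it resembles. The sham and stroke libraries held 21 and 212 myeloid-like nuclei, 512 and 631 astrocyte-like, 109 and 193 oligodendrocyte-like, 92 and 91 OPC-like (oligodendrocyte precursor), 3088 and 1837 glutamatergic neuron-like, 583 and 283 spiny projection neuron-like, 1420 and 859 GABAergic interneuron-like and 147 and 238 vascular-like nuclei. The other 845 and 710 nuclei stayed unassigned. Markers held back from the sorting were more accessible in their own class than over all nuclei by 1.72-fold to 6.17-fold in 7 classes, but by 1.15-fold and 1.22-fold in glutamatergic neuron-like nuclei, where none of 8 genes passed 1.5-fold, so that this label is weakly supported. The GABAergic interneuron label is weak too, since its check markers stood at 1.76-fold and 1.72-fold in that class but at 1.62-fold and 2.03-fold in sham and stroke OPC-like nuclei and at 1.69-fold and 1.57-fold in astrocyte-like nuclei. The median percent of fragments in peaks was lower in the stroke library in every class, for example 36.1% and 28.5% in sham and stroke myeloid-like nuclei and 54.3% and 49.4% in astrocyte-like nuclei.

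Levels are counts of fragments in CPM, that is, scaled to a total of 1000000 fragments for that class and library. The promoter window ran from 2 kb upstream to 500 bp downstream of the start of the principal transcript, and the gene window covered the gene body plus 2 kb upstream. Promoter levels have a fixed length and can be set side by side between genes, whereas gene-window levels grow with gene length. All intervals are 95% intervals that cover counting error only, and those of fragments are exact. Intervals of cut sites, given for bins, treat both ends of a fragment as independent. They are too narrow where both ends fall in the same bin.

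The sequences that the results below turn on are shown first, from the mm10 (GRCm38) assembly, 5′ to 3′ on the strand of the gene. The promoter with the highest ratio in myeloid-like nuclei, that of Ctsc, and that of Lamp1, chosen after its motifs were seen, are the 250 bases before the RefSeq start. The promoters of Ctsz, Gusb, Tfeb and Ctsa, next in stroke-library ratio among those matched to RefSeq, are not shown. They held none of the sequences marked below in their 250 bases. Capitals mark the E-box CACGTG, the PU.1 sequence GAGGAAGT, the shorter ETS sequence GGAAGT that it contains, or the AP-1 sequence TGANTCA, on either strand.
Ctsc promoter, chr7:88277835-88278084, plus strand: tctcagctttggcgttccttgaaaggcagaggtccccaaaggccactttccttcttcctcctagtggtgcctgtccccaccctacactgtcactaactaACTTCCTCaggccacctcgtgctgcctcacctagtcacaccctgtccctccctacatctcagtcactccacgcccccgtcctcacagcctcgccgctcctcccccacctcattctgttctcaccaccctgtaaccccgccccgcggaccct
Lamp1 promoter, chr8:13158911-13159160, plus strand: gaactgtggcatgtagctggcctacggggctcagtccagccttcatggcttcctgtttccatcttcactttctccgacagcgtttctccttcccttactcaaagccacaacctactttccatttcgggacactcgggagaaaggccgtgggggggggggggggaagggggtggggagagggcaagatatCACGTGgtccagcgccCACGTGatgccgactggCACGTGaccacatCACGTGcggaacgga
The next 5 windows of 300 bases lie in introns of Psap, Ctsb, Ctsz, Hexa and Atp6ap1 and are centred on the cut sites of myeloid-like nuclei. They were chosen after values were seen. Only the bin of 500 bp with the largest myeloid-like excess over the other classes in the stroke library was considered per gene. The windows shown come from such bins that lay in introns and were at least 5-fold above the other classes in both libraries. Other positions of these genes may pass the same ratio. The capitals have the same meaning.
Psap intron 1, chr10:60286602-60286901, plus strand: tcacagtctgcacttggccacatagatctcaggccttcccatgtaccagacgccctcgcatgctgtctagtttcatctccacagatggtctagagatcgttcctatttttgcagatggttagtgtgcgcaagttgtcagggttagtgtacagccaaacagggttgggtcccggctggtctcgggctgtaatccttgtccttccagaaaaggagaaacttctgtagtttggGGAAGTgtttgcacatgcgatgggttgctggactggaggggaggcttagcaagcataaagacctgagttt
Ctsb intron 1, chr14:63128980-63129279, plus strand: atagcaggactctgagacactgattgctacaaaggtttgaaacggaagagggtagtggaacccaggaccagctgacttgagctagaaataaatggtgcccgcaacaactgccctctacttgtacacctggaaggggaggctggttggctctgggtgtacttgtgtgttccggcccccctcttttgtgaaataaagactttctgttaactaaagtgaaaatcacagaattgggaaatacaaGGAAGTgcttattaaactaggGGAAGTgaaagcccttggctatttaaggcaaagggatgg
Ctsz intron 2, chr2:174436281-174436580, minus strand: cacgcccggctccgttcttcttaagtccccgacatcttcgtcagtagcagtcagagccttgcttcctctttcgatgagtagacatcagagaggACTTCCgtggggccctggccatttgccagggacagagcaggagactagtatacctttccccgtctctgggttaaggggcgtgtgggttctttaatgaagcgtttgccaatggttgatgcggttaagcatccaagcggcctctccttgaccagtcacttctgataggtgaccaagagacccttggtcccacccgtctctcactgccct
Hexa intron 1, chr9:59544791-59545090, plus strand: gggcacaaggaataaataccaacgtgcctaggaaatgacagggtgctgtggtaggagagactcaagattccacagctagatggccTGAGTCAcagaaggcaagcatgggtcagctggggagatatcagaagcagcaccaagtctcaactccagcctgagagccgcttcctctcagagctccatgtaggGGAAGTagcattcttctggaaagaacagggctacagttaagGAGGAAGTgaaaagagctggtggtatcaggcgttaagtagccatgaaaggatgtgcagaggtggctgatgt
Atp6ap1 intron 2, chrX:74299738-74300037, plus strand: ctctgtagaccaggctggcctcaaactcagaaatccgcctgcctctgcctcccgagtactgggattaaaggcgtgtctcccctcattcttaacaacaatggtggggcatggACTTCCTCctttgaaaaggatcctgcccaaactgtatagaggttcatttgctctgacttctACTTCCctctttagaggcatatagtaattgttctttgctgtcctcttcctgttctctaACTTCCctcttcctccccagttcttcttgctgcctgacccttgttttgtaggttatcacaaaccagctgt
The last windows are the positions at least 10-fold more accessible in the stroke than in the sham library in astrocyte-like nuclei, also chosen after values were seen. The window upstream of Hexa lies within Tmem202, a gene annotated on the opposite strand.
Ctsb intron 1, second window, chr14:63132358-63132657, plus strand: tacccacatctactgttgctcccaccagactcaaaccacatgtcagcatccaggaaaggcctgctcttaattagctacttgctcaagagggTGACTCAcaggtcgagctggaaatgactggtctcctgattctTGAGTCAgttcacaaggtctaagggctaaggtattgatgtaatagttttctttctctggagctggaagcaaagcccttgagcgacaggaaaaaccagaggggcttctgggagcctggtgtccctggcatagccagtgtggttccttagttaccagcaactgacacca
Hexa upstream window, chr9:59537739-59538038, plus strand: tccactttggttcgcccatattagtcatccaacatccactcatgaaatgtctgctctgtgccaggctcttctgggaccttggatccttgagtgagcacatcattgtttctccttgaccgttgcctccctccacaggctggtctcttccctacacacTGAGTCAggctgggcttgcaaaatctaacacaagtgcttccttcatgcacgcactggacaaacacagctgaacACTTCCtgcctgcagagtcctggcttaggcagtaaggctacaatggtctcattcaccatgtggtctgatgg

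Over the gene window, the proteases were the group most often called higher in myeloid-like nuclei, while at the promoter 4 of 10 proteases and 1 of 2 regulators were. A gene was called higher or lower in a class when it differed at least 1.5-fold from the mean of the other 7 classes in both libraries. In myeloid-like nuclei 11 of the 40 genes were higher and 0 were lower over the gene window, against 6% of all genes tested that were higher and 9.38% that were lower. These were the proteases Ctsb, Ctsc, Ctsd, Ctsh, Ctss, Ctsz and Lgmn, the lipase gene Lipa, the glycosidase genes Hexa and Gusb, and the pump subunit gene Atp6v0d2. Of the 12 proteases 7 were higher, with a median log2 ratio of 0.94 in the stroke library, beside 0.36 for all 40 genes and −0.11 for all genes tested. Over the promoter, 8 of the 37 genes with enough fragments were higher (Ctsa, Ctsc, Ctsh, Ctsz, Glb1, Gusb, Atp6v0a1 and Tfeb), against 4.15% of all genes, and 1, Ctsf, was lower, against 11.9%. Ctsf had no sham fragment there, and class calls set no floor for a count of 0. The count of 11 was 6 when classes were assigned by the check markers, and the count of 8 was 5 with check markers and 4 with nuclei thinned to 3000 fragments. The sham values rest on 102306 fragments from 21 nuclei, and the counts called in both libraries could not be checked in further animals. In that class the median gene-window level was 44 for the list and 9.77 for all genes, and at the promoter 19.5 and 0. The shares of all genes were not matched for level. A gene with no sham fragment cannot be called higher and counts as lower in that library.

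The stroke myeloid-like class held markers of several kinds of myeloid cell. Homeostatic microglia markers were 2.08-fold above all nuclei there, monocyte-derived and border macrophage markers 1.55-fold (626 fragments, 5 of 12 genes past 1.5-fold, Ly6c2 at 0) and granulocyte markers 2.53-fold (211 fragments, 6 of 8 genes, none at 0). The microglia list shares P2ry12, P2ry13 and Cx3cr1 with the markers that set the class, so that its excess is partly fixed by the sorting. The macrophage and granulocyte lists share none, so that the lists cannot be ranked against each other. In the sham class the same lists stood at 3.17-fold, 0.846-fold (10 fragments, 6 of 12 genes at 0) and 3.03-fold (6 fragments, 6 of 8 genes at 0). T and NK cell markers stood at 2.55-fold in sham (31 fragments) and 1.01-fold in stroke, and oligodendrocyte markers at 2.05-fold (21 fragments) and 1.23-fold. Their part in the levels of the lysosomal genes was not tested.

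**Figure D1:**
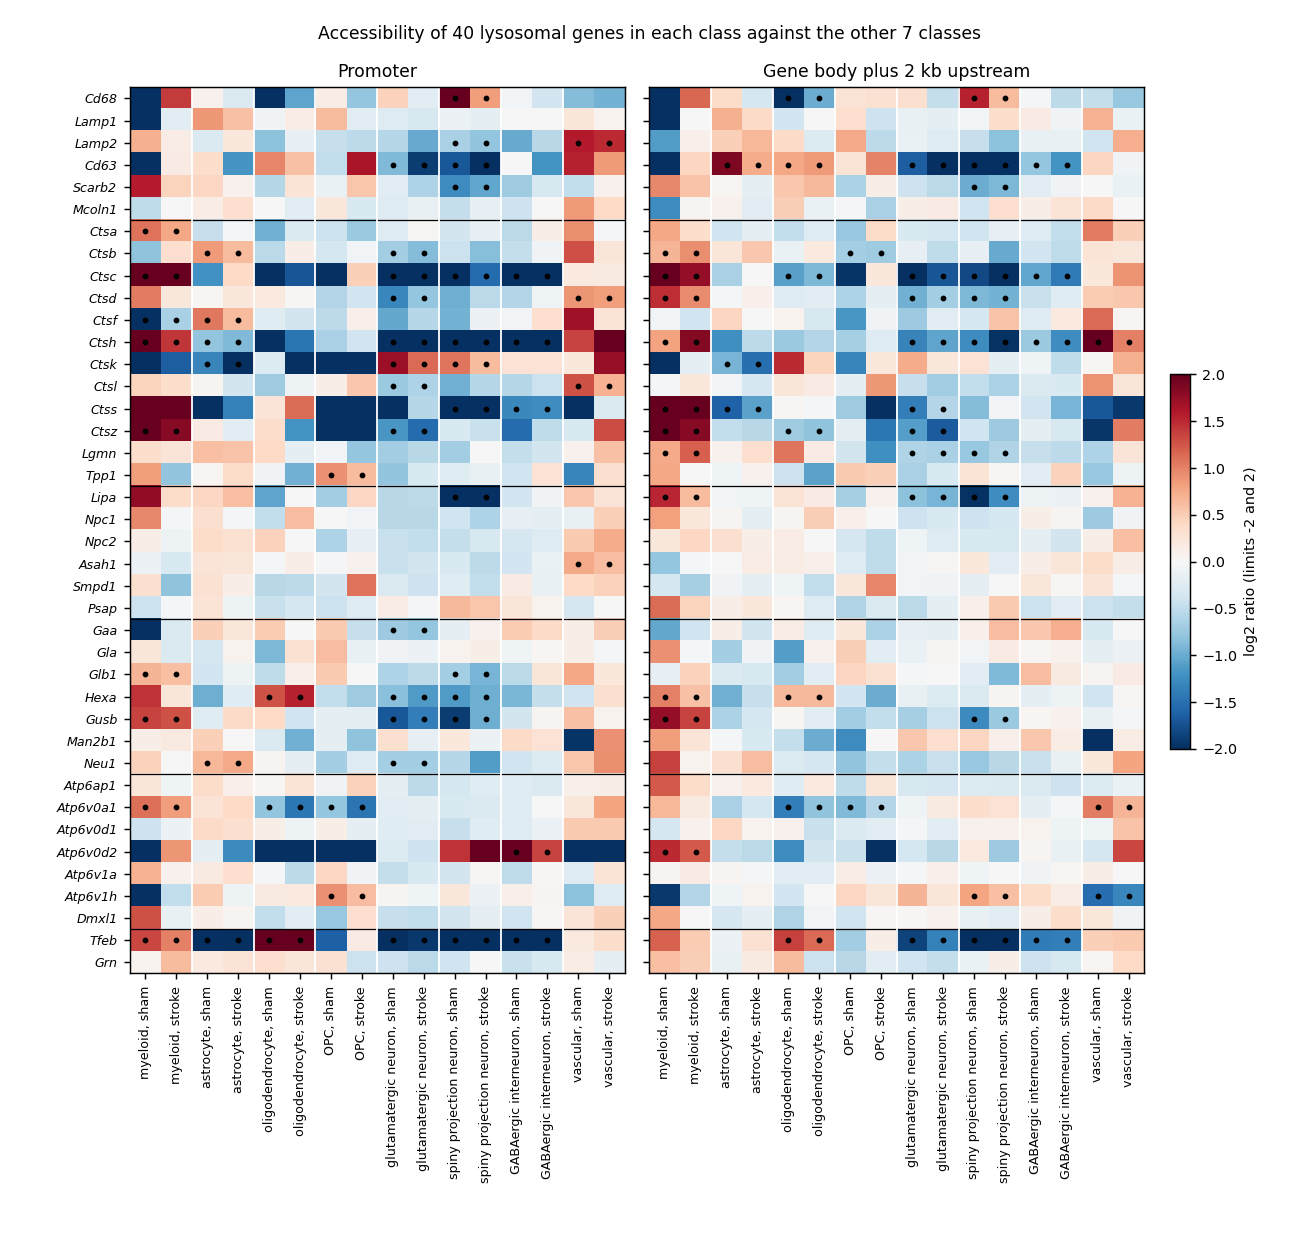
Log2 ratio of each of the 40 genes (vertical axis, ordered by role) in each class and library (horizontal axis) against the mean of the other 7 classes, for promoters on the left and gene windows on the right. Red is higher, blue is lower, the scale stops at −2 and 2, and dots mark genes called in both libraries. The myeloid-like columns hold dots at 7 of the 12 proteases in the right panel, and Tfeb, Ctsc, Ctsh and Cd63 carry runs of blue dots in the neuronal columns.

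Ctss, the cathepsin S gene of antigen-presenting cells, had a gene-window level of 29.3 in sham and 26.7 in stroke myeloid-like nuclei. In every other class it lay between 1.52 and 7.68, but the sham myeloid-like value rests on 3 fragments, with a counting interval of 6.05 to 85.7 that reaches below 7.68. The ratios to the other classes were 6.54 and 6.30, on 3 and 84 fragments. Ctsc, which encodes the dipeptidyl peptidase that activates granule serine proteases, reached 48.9 and 31.4 in myeloid-like nuclei and 20.3 or less elsewhere. Its promoter was at 39.1 (4 fragments) and 14.9 (47 fragments), beside 0.953 and 0.848 in glutamatergic neuron-like nuclei. The Ctsc promoter ratios of 17.3 and 4.84 were the highest of the 40 genes in each library among those with enough fragments. The count in the class itself enters that minimum, so that a gene can pass it by being high there.

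Ctsz and Ctsh, genes of carboxypeptidase and aminopeptidase cathepsins, followed the same pattern. The Ctsz gene window was at 29.3 and 40.7 in myeloid-like nuclei, ratios of 4.83 and 3.52, and at 27.4 in the stroke vascular-like nuclei, its next highest value. Ctsh was at 19.5 (2 fragments) and 38.4 in myeloid-like nuclei, but also at 38.6 and 25.4 in vascular-like nuclei, where it was likewise called higher. In the 3 neuronal classes Ctsh lay between 3.98 and 7.73, below the myeloid-like and vascular-like values in both libraries. The Ctsh promoter was nearly closed in neurons, with at most 0.584 CPM, against 9.77 (1 fragment) and 8.58 in myeloid-like nuclei.

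Ctsd and Ctsb, the genes of the major aspartic and cysteine cathepsins, were open in every class, and the myeloid-like lead was smaller. Ctsd stood at 108 and 65.1 in myeloid-like nuclei (2.77-fold and 1.93-fold) and between 20.8 and 64.3 elsewhere. Its promoter was highest outside the myeloid-like class in vascular-like nuclei, at 54 and 34.5, and was at 14.1 and 13 in glutamatergic neuron-like nuclei. Ctsb stood at 58.6 and 84.8 in myeloid-like nuclei (1.60-fold and 1.91-fold), with astrocyte-like nuclei next at 68 in the stroke library. The Ctsb promoter was called higher in astrocyte-like nuclei, at 26.3 and 20.3, while the sham myeloid-like value of 9.77 came from 1 fragment.

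Lgmn, which encodes the asparaginyl endopeptidase legumain, was at 117 and 129 in myeloid-like nuclei (1.70-fold and 2.28-fold) and at 138 in sham oligodendrocyte-like nuclei. Its promoter did not follow, with 45 and 31.1 in astrocyte-like nuclei against 39.1 and 26 in myeloid-like nuclei. The remaining proteases were not called higher in myeloid-like nuclei over the gene window. Ctsf, a cathepsin gene, had a promoter level of 20.4 and 12.5 in astrocyte-like nuclei, where it was called higher, and 0 and 5.72 in myeloid-like nuclei. Tpp1, the tripeptidyl peptidase gene of a neuronal storage disease, was called higher at the OPC-like promoter, at 30.7 and 18.2. Ctsk, known as the osteoclast cathepsin gene, went the other way, with promoter levels of 5.77 and 5.22 in glutamatergic neuron-like nuclei and at most 0.984 in astrocyte-like nuclei. Ctsl and Ctsa promoters were open in every class, from 8.23 to 30.9 and from 4.55 to 19.5.

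**Figure D2:**
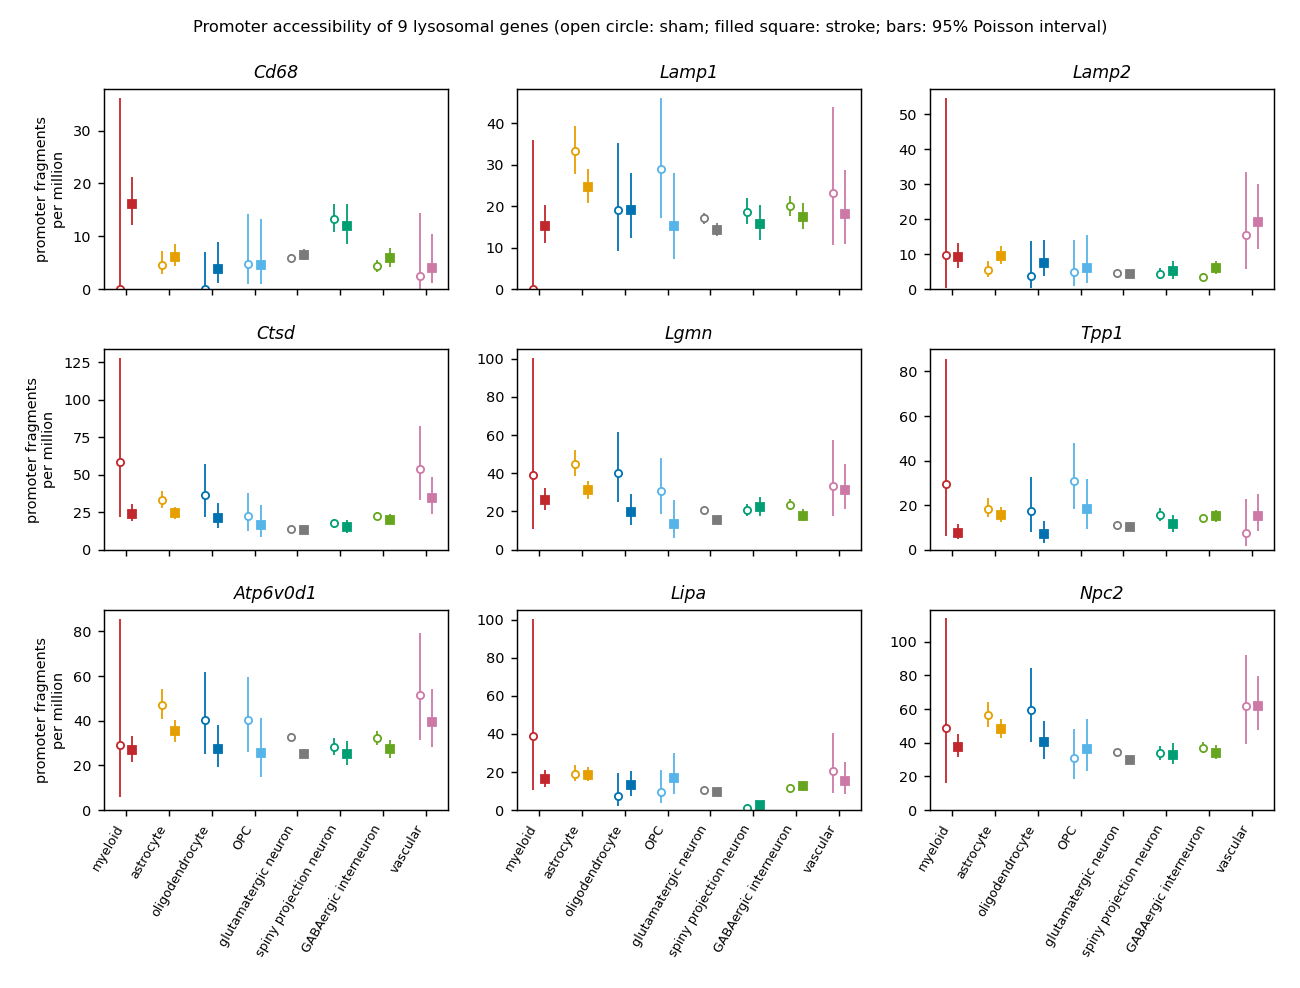
Promoter levels in CPM (vertical axes, each from 0) of 9 genes in each class (horizontal axis), with open circles for sham, filled squares for stroke and bars for exact 95% Poisson intervals. The sham myeloid-like intervals are wide because few fragments were counted there, Atp6v0d1 and Npc2 were open in all classes, and Lipa was near 0 in spiny projection neuron-like nuclei.

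Among the lipid genes, Lipa, which encodes lysosomal acid lipase, was called higher over the gene window of myeloid-like nuclei at 68.4 and 48.3 (2.88-fold and 1.56-fold). Its promoter differed among the neuronal classes. It was at 0.983 and 2.56 in spiny projection neuron-like nuclei, at 10.6 and 9.38 in glutamatergic neuron-like nuclei and at 11.7 and 12.5 in GABAergic interneuron-like nuclei. The sterol exporters Npc1 and Npc2, the ceramidase gene Asah1 and the sphingomyelinase gene Smpd1 were not called in any class over the gene window. Npc2 promoter levels ran from 29.8 to 61.9, and the window holds the start of Isca2 too. Psap, which encodes the precursor of the saposins that activate sphingolipid hydrolases, was at 147 and 85.1 in myeloid-like and 81.7 and 89 in spiny projection neuron-like nuclei, and was not called.

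Of the glycosidase genes, Gusb (beta-glucuronidase) was called higher in myeloid-like nuclei in both windows. Its gene window was at 58.6 and 39.4 there, 3.38-fold and 2.55-fold, and between 10.1 and 23.1 in the other classes. Hexa, a hexosaminidase gene, was called higher in both myeloid-like (58.6 and 48) and oligodendrocyte-like nuclei (48 and 49.5). At the promoter, Hexa was highest in oligodendrocyte-like nuclei of the stroke library, at 33.5 after 26.9 in sham, against 7.8 and 6.96 in glutamatergic neuron-like nuclei. Neu1, the sialidase gene, was called higher at the astrocyte-like promoter, at 33 and 27.7. Glb1, the beta-galactosidase gene, was called higher at the myeloid-like promoter at 19.5 (2 fragments) and 15.2, a window that holds the start of Tmppe too. Gaa, Gla and Man2b1, which encode alpha-glucosidase, alpha-galactosidase and alpha-mannosidase, were called higher in no class.

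Of the proton pump, 1 of 7 genes was higher in myeloid-like nuclei over the gene window, against 6% of all genes, and 1 of 6 (Atp6v0a1) at the promoter, against 4.15%. Over the gene window the group's median log2 ratio was 0.16 in the stroke library. The gene-window call was Atp6v0d2, a subunit known from osteoclasts and macrophages, at 29.3 (3 fragments) and 28.9, or 2.80-fold and 2.35-fold. Its promoter was almost closed in all classes, at 1.14 or less, so that its fragments lay inside the gene. The related subunit Atp6v0d1 had promoter levels between 25 and 51.4 in all classes and was called in none. Atp6v1h, a subunit of the catalytic part, was called higher in spiny projection neuron-like nuclei, at 53.7 and 56.3, and lower in vascular-like nuclei, at 12.9 and 17.2. Atp6v0a1, the membrane subunit used at synapses, was called lower in oligodendrocyte-like and OPC-like nuclei in both windows, for example at 38.4 and 46.5 over the gene window of oligodendrocyte-like nuclei against 88.4 and 85.6 in glutamatergic neuron-like nuclei. Atp6ap1, Atp6v1a and Dmxl1 were called in no class over the gene window.

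Membrane genes differed in which class they favoured. Cd63, a tetraspanin gene of late endosomes, was at 60.3 and 47.7 in astrocyte-like, 34.6 and 50.3 in oligodendrocyte-like, 7.70 and 7.64 in glutamatergic neuron-like and 5.77 and 2.56 in spiny projection neuron-like nuclei. It was called higher in the former pair and lower in all 3 neuronal classes. Cd68, the macrosialin gene used as a macrophage marker, had a promoter level of 16.2 in stroke myeloid-like nuclei (51 fragments) and 0 in sham, where the upper interval limit was 36.1. It was also open in spiny projection neuron-like nuclei, at 13.3 and 11.9, against 5.85 and 6.45 in glutamatergic neuron-like nuclei, in a window that overlaps Eif4a1. Lamp1 and Lamp2 did not lead in myeloid-like nuclei, since the Lamp1 promoter was highest in astrocyte-like nuclei of the 2 libraries (33.2 and 24.6) and the Lamp2 promoter in vascular-like nuclei (15.4 and 19.3). Scarb2, the receptor that delivers beta-glucocerebrosidase, was called lower in spiny projection neuron-like nuclei, at 35.9 and 38.7. Mcoln1, the calcium channel gene, was called in no class in either window.

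The regulators split as well. Tfeb had gene-window levels of 248 and 191 in oligodendrocyte-like, 225 and 135 in myeloid-like, 152 and 136 in vascular-like and 107 and 120 in astrocyte-like nuclei. The 3 neuronal classes held between 24.8 and 47, below every non-neuronal class in both libraries. At the principal promoter Tfeb was at 17.3 and 12.2 in oligodendrocyte-like nuclei and at 1.24 or less in neurons. Placing the promoter at the outermost start of the gene, a choice made after seeing the data, turned the direction in myeloid-like nuclei (0.611-fold in the stroke library) and in astrocyte-like nuclei (1.43-fold). Grn, the progranulin gene, was called in no class, with promoter levels between 11.4 and 23.

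Ctsc, Ctsh and Tfeb were lower in all 3 neuronal classes at the promoter, and Cd63, Ctsc, Ctsh and Tfeb over the gene window. The share of all genes lower in all 3 was not computed, so that these genes have no background beside them. At the promoter, 12 of 40 genes were lower in glutamatergic neuron-like nuclei, against 20.8% of all genes, 11 of 39 in spiny projection neuron-like nuclei, against 20.3%, and 4 of 40 in GABAergic interneuron-like nuclei, against 11.4%. Over the gene window 9, 9 and 4 of 40 were lower in these classes, against 14.1%, 16.7% and 8.61%. Higher genes were few, with 1 (Ctsk, against 6.77%), 2 (Cd68 and Ctsk, against 7.17%) and 1 (Atp6v0d2, against 6.81%) at the promoter, and 0, 2 (Cd68 and Atp6v1h) and 0 over the gene window, against 6.74%, 8.57% and 5.26%. The Atp6v0d2 promoter was almost closed in all classes, so that its call sets very low levels against each other. The Ctsk promoter ratio of spiny projection neuron-like nuclei in the stroke library, 1.55, became 0.978 with classes assigned by the check markers and 0.83 with thinned nuclei. Lower in at least 1 neuronal class were 17 genes by promoter, against 28.7% of all genes, and 11 by gene window, against 24.1%. Scaled to fragments in promoters, the 17 became 10. In contrast, 22 of the 40 genes by gene window and 14 by promoter were called in no class, against 43.6% and 43.7% of all genes. Astrocyte-like nuclei had 1 gene higher (Cd63) and 2 lower (Ctss and Ctsk) over the gene window, against 6.77% and 10% of all genes. At the astrocyte-like promoter 3 of 38 were higher (Neu1, Ctsf and Ctsb) and 3 lower (Ctsh, Tfeb and Ctsk), against 10.6% and 9.05%. Oligodendrocyte-like nuclei had 3 higher (Tfeb, Cd63 and Hexa) and 4 lower (Atp6v0a1, Ctsz, Ctsc and Cd68) over the gene window, against 5.28% and 9.86%, and 2 higher (Tfeb and Hexa) and 1 lower (Atp6v0a1) of 32 at the promoter, against 4.22% and 7.19%. OPC-like nuclei had 0 higher and 2 lower (Atp6v0a1 and Ctsb) of 39, against 6.14% and 6.78%, and at the promoter 2 higher (Tpp1 and Atp6v1h) and 1 lower (Atp6v0a1) of 28, against 7.74% and 3.19%. Vascular-like nuclei had 2 higher (Ctsh and Atp6v0a1) and 1 lower (Atp6v1h) of 39, against 11.8% and 13.2%, and at the promoter 4 higher (Lamp2, Ctsd, Ctsl and Asah1) and 0 lower of 31, against 19.5% and 3.2%. Among 88 further lysosomal genes, 11 were higher and 1 lower in myeloid-like nuclei over the gene window, against 6% and 9.38% of all genes, and 8 higher and 3 lower of 81 at the promoter, against 4.15% and 11.9%. The higher genes were led over the gene window by the membrane genes Laptm5 (58.6 and 48.6, ratios of 4.09 and 3.59) and Slc29a3 (88 and 94, 2.51 and 3.14). The lowest were Atp6v0e2 (0 and 13.3), Mtor (88 and 83.2) and Idua (58.6 and 42.6).

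Bins of 500 bp along each locus showed where the classes differed. At Ctsb, an intronic bin 6500 bp downstream of the start had cut-site levels of 19.5 CPM (2 cuts) and 17.2 CPM (54 cuts) in sham and stroke myeloid-like nuclei. The mean of the other classes there was 1.95 and 1.15. At Ctsz, a bin in intron 2 at 2500 bp was at 19.5 and 18.1, which was 21.7-fold and 16.5-fold the other classes. At Hexa, a bin in intron 1 at 5000 bp was at 19.5 and 10.5 (24.4-fold and 11.3-fold), and at Psap, a bin in intron 1 at 9000 bp was at 19.5 and 10.8 (10.7-fold and 8.09-fold). At Atp6ap1, a bin in intron 2 at 2500 bp was at 29.3 and 6.67, although this gene was not called by either window. These are the positions whose sequences are printed above, and each sham value rests on 2 or 3 cuts, which may come from fewer fragments. All 5 sequences held GGAAGT, as did 16.8% of 2552 windows of that length in the 40 genes, and those of Hexa and Atp6ap1 also held GAGGAAGT, found in 1.96%. Those 2552 windows were not chosen for accessibility, so that they are not matched to open positions.

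Other classes had intragenic positions of their own at the same genes. The Psap bin at 8000 bp, next but one to the myeloid-like position, was at 33 and 24.6 in astrocyte-like and 20.6 and 22.8 in spiny projection neuron-like nuclei. Upstream of Hexa, the bin at −2000 bp was at 32.6 and 45 in oligodendrocyte-like nuclei. In Tfeb, the bin at −23000 bp was at 49.9 and 41.9 in oligodendrocyte-like and 41.3 and 41.5 in astrocyte-like nuclei, whereas those at −17000 bp (108 and 27.9) and −31500 bp (19.5 and 21) were open in myeloid-like nuclei. Tfeb positions upstream of the principal start lie inside the annotated gene, whose outermost start is near −49000 bp. In Cd63, the bin at 500 bp was at 42.3 and 41.9 in astrocyte-like and 34.6 and 41.9 in oligodendrocyte-like nuclei, and at 0.67 and 1.65 in glutamatergic neuron-like nuclei.

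**Figure D3:**
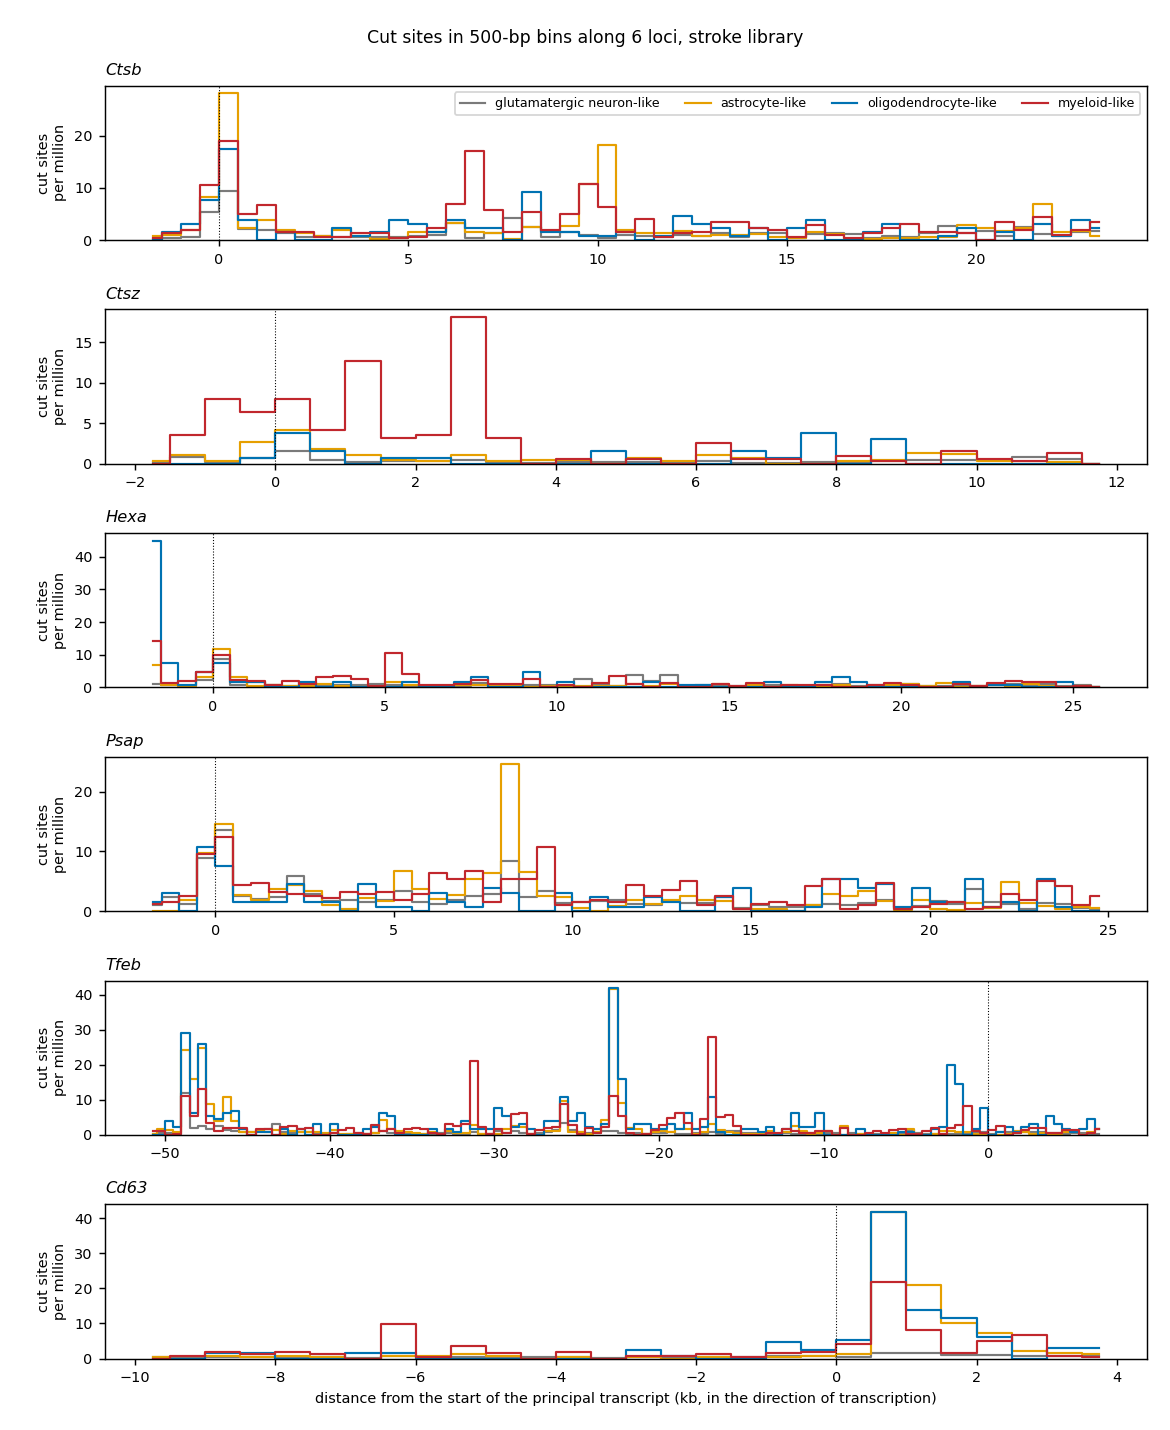
Cut sites in CPM (vertical axes, each from 0) in 500-bp bins along Ctsb, Ctsz, Hexa, Psap, Tfeb and Cd63 in the stroke library, by distance from the start of the principal transcript in kb (horizontal axes), for 4 classes. The red myeloid-like line rises inside Ctsb and Ctsz away from the start, the yellow astrocyte-like line rises inside Psap, and the blue oligodendrocyte-like line rises upstream of Hexa and within Tfeb.

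Promoters of the list carried more E-boxes than promoters at large. Of the 31 promoters matched to RefSeq (250 bases before to 50 after the start), 10 held CACGTG, or 32.3%, against 8.61% of 14498 promoters, and 13 of 67 (19.4%) among the further lysosomal genes. Lamp1 held 4 copies within its last bases before the start, as printed above, and the other carriers were Atp6v0d1, Atp6v1a, Ctsd, Ctsf, Ctsl, Gaa, Gla, Glb1 and Mcoln1. Of these 10, Glb1 was the only one called higher at the myeloid-like promoter. The CLEAR sequence, a longer palindrome with the E-box at its centre, was in 0 of 31 and in 0.483% of all. GAGGAAGT, the sequence bound by the myeloid factor PU.1, was in 4 promoters (12.9%, against 3.30%), those of Ctsc, Ctss, Gusb and Gla. In Gusb it lay after the start. The shorter GGAAGT was in 29.0% and 26.6%, and the AP-1 sequence TGANTCA in 12.9% and 6.62%. Among the further lysosomal genes GAGGAAGT and TGANTCA were each in 1 of 67 (1.49%), below all promoters, and GGAAGT in 32.8%. A match describes letters and does not show binding.

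Between the libraries, each gene was compared within each class, and the counts stand beside the shares of all genes. A gene was called when the stroke level was at least 1.5-fold above or below the sham level, among genes with at least 10 expected fragments in each library. In astrocyte-like nuclei, 3 of 40 genes were higher and 2 lower over the gene window, against 7.82% and 5.27% of all genes. The median log2 ratio was −0.01 for the list and −0.06 for all genes. In glutamatergic neuron-like nuclei, 1 of 40 was higher and 0 lower, against 6.03% and 0.79%, with medians of −0.05 and −0.04. Spiny projection neuron-like nuclei had 2 higher and 2 lower (5.99% and 5.35% of all genes) and GABAergic interneuron-like nuclei 1 and 1 (3.59% and 2.79%). In myeloid-like nuclei, 2 of 40 genes had enough fragments over the gene window and 0 at the promoter, so that stroke and sham could not be compared there for the rest. Tfeb was one of them and was called lower, at 225 (23 fragments) and 135 (425 fragments), a ratio of 0.60 (interval 0.395 to 0.958). Lgmn, the other, was at 117 and 129. Of all 1231 genes tested in this class, 19.3% were higher and 15.2% lower.

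The genes higher in stroke astrocyte-like nuclei over the gene window were Ctsh, Ctsz and Ctsc. Ctsh was at 5.66 in sham and 10.3 in stroke (ratio 1.81, interval 1.10 to 3.07), Ctsz at 6.64 and 10.8 (1.62, 1.02 to 2.65) and Ctsc at 7.63 and 12.1 (1.59, 1.03 to 2.51). Ctsb was at 45.8 and 68, just under the threshold (1.49, 1.2 to 1.8), and Hexa at 18 and 25.5 (1.42, 1.06 to 1.90). Myeloid check markers summed to 122 in sham and 111 in stroke astrocyte-like nuclei, with none of 9 genes past 1.5-fold over all nuclei. The lists of homeostatic microglia (351 and 384), monocyte-derived and border macrophages (108 and 113) and granulocytes (23.9 and 29.6) summed higher in the stroke library in this class, and their part in these ratios was not tested. With classes assigned by the check markers, the Ctsz ratio was 0.819. Gaa was lower, at 39.6 and 23.2 (0.587, 0.463 to 0.742), as was Ctsf, at 26.1 and 15.7 (0.603, 0.451 to 0.805), and Mcoln1 was at 45.5 and 31.9, Atp6v0d1 at 93 and 70.9 and Lamp1 at 44 and 34.5. At the promoter, 3 of 34 were higher (Ctsc, Lamp2 and Hexa) and 2 lower (Ctsf and Ctsl), against 5.62% and 10.1% of all genes. Of these, Lamp2 went from 5.41 to 9.57 (1.77, 1.06 to 3.04) and Hexa from 7.13 to 12.3 (1.72, 1.11 to 2.75).

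Single positions within the genes differed between the libraries by larger ratios in astrocyte-like nuclei. In intron 1 of Ctsb, the bin at 10000 bp had 1.23 CPM in sham (5 cuts) and 18.3 in stroke (107 cuts), a ratio of 14.9 (interval 6.17 to 46.7). Its neighbour at 9500 bp had 0.246 (1 cut) and 10.8 (63 cuts). In the stroke library the bin at 10000 bp was at 6.35 in myeloid-like, 4.06 in vascular-like and 0.424 in glutamatergic neuron-like nuclei, so that astrocyte-like nuclei were the highest class. The bin at −2000 bp of Hexa, open in oligodendrocyte-like nuclei of both libraries, went from 0.492 (2 cuts) to 7.0 (41 cuts) in astrocyte-like nuclei, a ratio of 14.2 (3.70 to 121). In Lgmn, the bin at 17500 bp went from 4.18 to 15.5 (17 and 91 cuts), a ratio of 3.72 (2.2 to 6.66). The sequences of the Ctsb and Hexa positions both held TGANTCA, in 2 copies and 1 copy, as did 8.74% of windows of that length, which were not chosen for accessibility.

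In astrocyte-like nuclei, these positions were part of a wider pattern and not particular to the list. Of 178 bins of the 40 genes with enough cuts in astrocyte-like nuclei, 11 were at least 3-fold higher and 1 lower in stroke. Among all bins with enough cuts in windows of protein-coding genes, the shares were 6.25% and 1.67%. Bins of the list were laid out from the start of each gene and those of all genes along the chromosome, so that their edges differ. The threshold of 3-fold was set after values were seen. In glutamatergic neuron-like nuclei 16 of 1235 bins were higher and 23 lower, against 1.04% and 1.96%. In GABAergic interneuron-like nuclei 5 of 382 were higher and 13 lower, against 0.754% and 3.8%. Spiny projection neuron-like nuclei had 1 of 131 higher and 4 lower, against 0.736% and 4.49%. OPC-like nuclei had 1 of 32 higher and 4 lower, against 2.35% and 3.41%, a difference that rests on few bins. In oligodendrocyte-like nuclei 0 of 25 bins were called, against 1.08% higher and 2.2% lower. In vascular-like nuclei 0 of 15 were called, against 1.75% and 1.42%. Bins were not recounted with other class assignments. The lower OPC-like bins were those at −500 bp of Gla, Lgmn, Mcoln1 and Tpp1. At OPC-like promoters 22.2% of all genes were called lower at 1.5-fold. The neuronal increases included the start of Ctsz in GABAergic interneuron-like nuclei, where the bin at 0 bp went from 1.02 to 4.62 and the one at 500 bp from 0.365 to 3.26, and a Tfeb bin at −43500 bp in glutamatergic neuron-like nuclei, from 0.850 to 2.97.

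In neurons, Ctss was the gene called higher in glutamatergic neuron-like nuclei, at 3.17 in sham and 4.88 in stroke (1.54, 1.18 to 2.00). Its levels there stayed below those of myeloid-like nuclei. In the same glutamatergic neuron-like nuclei, Ctsh was at 5.25 and 7.30 (1.39, 1.13 to 1.71) and Ctsc at 3.06 and 4.03. The lowest ratios in this class were those of Gaa (33.5 and 26.1, 0.780), Neu1 (21.4 and 17.1), Atp6ap1 (20.1 and 16.1), Grn (37.3 and 31.1) and Ctsa (26 and 21.6). In spiny projection neuron-like nuclei, Lipa went from 8.23 to 15.1 (1.83, 1.3 to 2.7), still the lowest of the 8 classes in that library, and Cd63 from 5.77 to 2.56 (0.443, 0.191 to 0.915). In GABAergic interneuron-like nuclei, Ctss was called lower, at 5.98 and 3.94 (0.658, 0.415 to 1.02), and Ctsz was called higher in both windows, at 7.95 and 12.5 over the gene window (1.57, 1.18 to 2.09) and 1.17 and 3.53 at the promoter (3.02, 1.56 to 6.03). Across the neuronal promoters, 1 of 39, 0 of 33 and 2 of 35 genes were higher and 0, 2 and 0 lower, against 4.78% and 2.87%, 3.24% and 9.19%, and 3.07% and 4.76% of all genes in glutamatergic neuron-like, spiny projection neuron-like and GABAergic interneuron-like nuclei.

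The unassigned nuclei had 3 of 40 genes higher (Ctss, Ctsc and Atp6v0d2) and 0 lower over the gene window, against 7.7% and 5.6%, and 5 higher and 3 lower of 38 at the promoter, against 3.74% and 14.9%. The smaller classes gave wide intervals. In oligodendrocyte-like nuclei, 1 of 27 genes was higher and 4 lower over the gene window, against 10.1% and 18.3%. Lgmn was at 138 in sham and 72.4 in stroke (0.524, 0.382 to 0.722) and Grn at 69.1 and 32 (0.463, 0.290 to 0.744). With classes assigned by the check markers, the Lgmn ratio was 1.03. In OPC-like nuclei, 5 of 30 were higher and 6 lower, against 12.3% and 16.8%, among them Cd63 at 25.9 and 54.7 (2.11, 1.14 to 4.08) and Lgmn at 59.8 and 30.4. In vascular-like nuclei, 2 of 25 were higher and 3 lower, against 13.5% and 14.6%, and Lamp2 was at 15.4 (6 fragments) and 38.5 (38 fragments). Promoter counts were 2 and 4 of 12 in oligodendrocyte-like (3.11% and 35.1% of all genes), 2 and 8 of 17 in OPC-like (11% and 22.2%) and 0 and 2 of 10 in vascular-like nuclei (5.86% and 23.6%).

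**Figure D4:**
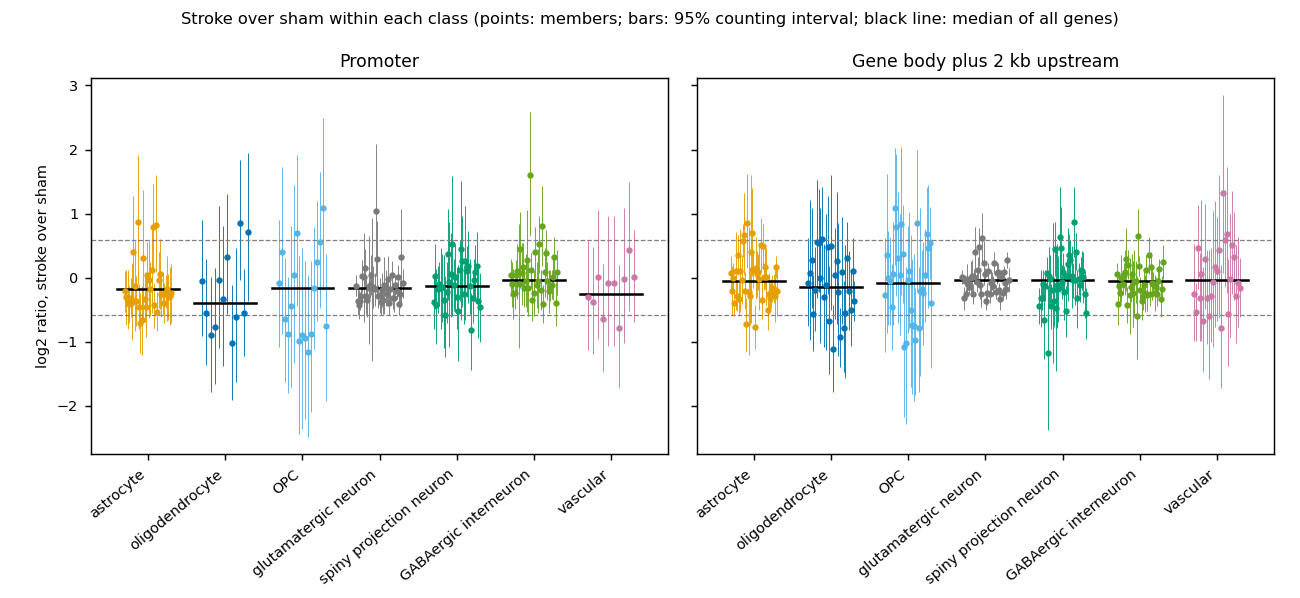
Log2 ratio of the stroke over the sham level (vertical axis) of each gene with enough fragments (points) in 7 classes (horizontal axis), for promoters on the left and gene windows on the right. Bars are 95% counting intervals, black lines are medians of all genes tested and dashed lines mark 1.5-fold. Points sit around the black lines in most classes, but at the OPC-like promoter a larger share was called lower than among all genes. The intervals are widest in OPC-like and vascular-like nuclei.

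Over all nuclei, 4 of the 40 genes were higher in the stroke library by gene window, against 11.2% of all genes, a similar share. They were Ctsc, Ctsh, Ctss and Ctsz. Ctsc went from 4.26 to 7.79 (1.83, 1.57 to 2.12), Ctsz from 6.11 to 10.8, Ctss from 4.19 to 6.84 and Ctsh from 6.40 to 10.4. At the promoter these 4 and Tfeb were higher, 5 of 40 against 9.41% of all genes, with Ctsh going from 0.626 to 1.78 (2.84, 1.98 to 4.14). No gene of the list was lower, against 0.37% and 1.45% of all genes, and the lowest were Gaa by gene window (38.8 and 30.2) and Gla by promoter (16.4 and 13).

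Class shares differed between the libraries, with 0.308% of sham and 4.19% of stroke nuclei being myeloid-like. To see how far this moved the genes, sham levels were recomputed with each class at its share of stroke fragments. The 5 genes called higher at the promoter, picked by their ratios over all nuclei, are given first. Their promoter log2 ratios then went from 1.51 to 0.46 for Ctsh, from 1.12 to −0.02 for Ctss, from 1.04 to −0.45 for Ctsc, from 0.96 to 0.53 for Ctsz and from 0.92 to 0.08 for Tfeb. The change in shares alone raised 31 of 40 genes by promoter and 30 of 40 by gene window, beside 10598 of 19194 and 10248 of 20794 of all genes. The list's median log2 ratio went from −0.08 to −0.19 by promoter, beside −0.08 and −0.13 for all genes. Scaled to promoter fragments, the list's medians turned positive, at 0.060 and 0.025, and by gene window they went from 0.13 to 0.14 in place of −0.01 to −0.09. The recomputed values of these 5 genes rest on 1 to 4 sham myeloid-like promoter fragments each, and those of the 40 genes on 0 to 6, and fewer nuclei of a class and less accessibility per nucleus can be separated only as far as the classes themselves hold. Sham tissue was whole brain and stroke tissue 1 hemisphere, so that shares cannot be told apart from dissection.

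**Figure D5:**
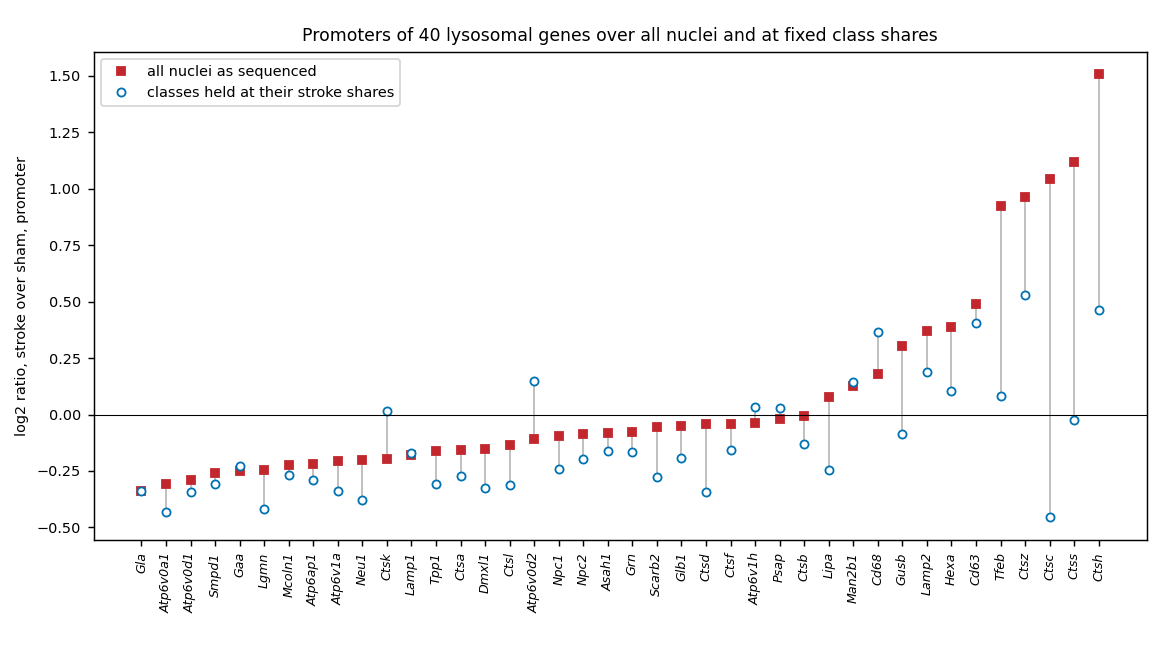
Log2 ratio of stroke over sham promoter levels (vertical axis) of the 40 genes (horizontal axis, in order of the ratio over all nuclei), as sequenced (red squares) and with classes held at their stroke shares (blue circles). Ctsh, Ctss, Ctsc, Ctsz and Tfeb have the highest squares, from 0.92 to 1.51, and their circles lie lower.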

How the data were processed

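Nuclei of 1 sham and 1 stroke library were profiled by single-cell ATAC-seq. Per the labels and the file headers, the authors ran Cell Ranger ATAC 2.1.0 on mm10 (Cell Ranger ARC reference) and deposited fragment tables, with counts of reads per fragment, and per-barcode counts of fragments overall and in peaks. Called barcodes with over 20% of fragments in peaks were kept (6817 of 6979 sham, 5054 of 8740 stroke). The fragment tables held 76959104 and 96465679 fragments, and 66 called barcodes were shared by the libraries. No doublets were removed here.

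The 40 genes, the further 88 lysosomal genes and the markers were chosen with earlier results of these data known. Genes and start sites came from GENCODE M21. Nuclei were placed in classes by marker scores over pools of 25 neighbours in a latent semantic space built without the lysosomal loci (score over 1, at least 0.4 above the next class), a rule set after marker scores were seen. Fragments overlapping each window were counted per library and class and scaled to CPM. Class calls used genes with at least 10 fragments on average of observed and expected over both libraries, a minimum added to the planned rule. Since the observed count enters it, a gene with few expected fragments can pass only through a class where it is high. Stroke against sham calls needed 10 expected fragments in each library. In stroke against sham calls, a count of 0 entered at a floor of 3 fragments. Class calls had no floor, so that 0 fragments counted as a ratio of 0. No p-values were computed, because cells are not replicates. Values were given for Cd68, Lamp1, Lamp2, Ctsd, Lgmn, Tpp1, Atp6v0d1, Lipa and Npc2 and, by the rule for named genes, for the genes with the highest and lowest ratios in the larger comparisons. Other named values and the printed intronic and upstream sequences were chosen after values were seen. Alternatives covered barcode filters, scaling, cut sites, other gates, fold and minimum counts. The calling steps were run on simulated counts with counting error only and planted changes larger than the 1.5-fold of the calls. This checks the code and does not show that calls would hold in other animals. Python 3.11.15, numpy 2.4.6, scipy 1.17.1, pandas 2.3.3 and matplotlib 3.10.9 were used.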

Additional observations from a re-analysis of the deposited data

Results flagged for a closer look

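For 5 genes the gene-window ratio of stroke over sham passed 1.5-fold upward in one class and downward in another, or 5 of 40, against 7.7% of all genes with enough fragments in at least 2 classes. At the promoter it was 0 of 36, against 3.71%. The difference between the classes was not tested, since each condition had 1 library. Ctsh had a ratio of 1.81 in astrocyte-like and 0.657 in vascular-like nuclei. Lamp2 had a ratio of 0.593 in OPC-like and 2.5 in vascular-like nuclei, and Ctsa one of 1.72 in OPC-like and 0.627 in vascular-like nuclei. Cd63 had a ratio of 2.11 in OPC-like and 0.443 in spiny projection neuron-like nuclei, where its sham level was already low at 5.77. Ctss had ratios of 1.54 in both glutamatergic neuron-like and spiny projection neuron-like nuclei and 0.658 in GABAergic interneuron-like nuclei. The counting intervals of Ctsh and Ctsa in vascular-like, Lamp2 and Ctsa in OPC-like and Ctss in spiny projection neuron-like and GABAergic interneuron-like nuclei included 1.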

How the results depend on the processing

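No paired analysis was possible because only 1 library was made per condition. The number of genes higher in myeloid-like nuclei by gene window (11) was 6 when classes were assigned by the check markers and 5 at 2-fold. By promoter (8) it was 5 with check markers, 4 with nuclei thinned to 3000 fragments and 5 at 2-fold. Genes lower in at least 1 neuronal class numbered 11 by gene window and 6 at 2-fold, and by promoter 17, with 10 when scaled to promoter fragments, 11 with check markers and 9 at 2-fold. Pairs of gene and class higher in stroke by gene window (15) became 25 with cut sites, 23 with check markers, 2 at 2-fold, and 26, 9 and 36 with a minimum of 5, 20 or none. By promoter (10) they became 17 with cut sites, 3 at 2-fold, and 18, 4 and 36 by minimum. Pairs lower by gene window (19) became 4 at 2-fold, 9 with a minimum of 20 and 35 with none, and by promoter (18) 2, 6 and 65. The median log2 ratio over all nuclei by gene window (−0.01) was 0.13 scaled to promoter fragments and −0.36 over all called barcodes, and at fixed shares (−0.09) it was 0.14 and −0.43. By promoter (−0.08) it was 0.060 scaled to promoter fragments and −0.60 over all called barcodes, and at fixed shares (−0.19) it was 0.025 and −0.67.

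Directions turned for some named values, and the cause was not tested. With the promoter at the outermost start, an alternative chosen after seeing the data, Tfeb was at 0.611 in myeloid-like and 1.43 in astrocyte-like nuclei. Ctsk in spiny projection neuron-like promoters was 0.978 with check markers and 0.83 thinned. Of stroke over sham ratios by gene window, check markers gave 0.819 for Ctsz in astrocyte-like, 1.03 for Lgmn in oligodendrocyte-like and 1.04 for Lamp1 in OPC-like nuclei, and thinning gave 1.05 for Lamp1, 0.915 for Ctsl and 0.936 for Lipa in OPC-like nuclei. In oligodendrocyte-like promoters, Ctsd was 1.11 with check markers, and Mcoln1 was 1.18 and Atp6v1a 1.02 thinned. Of 798 alternative class values of named genes, 729 stayed within their counting intervals, as did 425 of 435 stroke over sham ratios. Several alternatives reuse much the same fragments and many intervals are wide, so that these counts do not show that calls held. Ratios that lost the minimum count were left out. Of the 62 named stroke over sham ratios, 4 of 53 turned with check markers and 5 of 55 with thinned nuclei. None turned in the other settings. The stroke library alone, also added after seeing the data, gave 12 genes higher in myeloid-like nuclei by gene window and 10 by promoter. Depth limited the sham myeloid-like class, with 102306 fragments.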
